A study of Homo sapiens with 10 samples.

Results

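The genes described here are 10 members of the tumor necrosis factor (TNF) superfamily and its receptor family, chosen by symbol: the ligands TNFSF15 and TNFSF10, and the receptors TNFRSF1A, TNFRSF1B, TNFRSF11B, TNFRSF10A, TNFRSF10B, TNFRSF10D, TNFRSF21 and FAS. All 10 were found among the 57736 Ensembl gene IDs of the count table, and 9 of the 10 passed the filter on low counts, which kept 16760 genes. The 10 samples were RNA of IMR90, a line of fibroblasts from human fetal lung, with 2 samples in each of 5 groups, and the study asked what METTL3 does in senescence. METTL3 holds the active site of the enzyme complex that places m6A, a methyl mark, on RNA.

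The mutant knock-in group was senescent, had METTL3 knocked out and received a mutant METTL3. The wild type knock-in group was senescent, had METTL3 knocked out and received wild type METTL3. The METTL3 knockout group was senescent with METTL3 knocked out and no knock-in named. The senescent control group was senescent with a control knockout, and the control group was not labelled senescent. Senescence came from a retrovirus expressing RAS, with a vector control retrovirus as its counterpart. What the titles call a knockout is siRNA in the protocol text, with a first transfection on day 4 after the retrovirus, a second transfection together with the knock-in lentivirus on the next day, and harvest 48 hours later. That protocol text names METTL14 as the gene, whereas the titles and the column names give METTL3. Column names of senescent control and of control samples both hold siCTR, read here as a control siRNA in both groups. The identity of the METTL3 mutant was not given in the sources used here. Column names of knockout samples hold vec, which those from senescent control lack, and whether either received an empty lentivirus was not given in the sources used here. Where senescent control is compared with the knockout or the knock-ins, a lentivirus and the state of METTL3 therefore cannot be told apart. The same holds against control cells, whose column names also lack vec, and there senescence from RAS differs as well. Should knockout cells have had no lentivirus, rises and falls of either knock-in relative to them would carry the limit of the lentivirus too. The labels do not say whether the 2 samples of a group were separate cultures, so each p-value reflects the spread of the samples at hand, and that spread may be technical.

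Ligands of the TNF superfamily are proteins on the cell surface or shed from it that cluster receptors of the TNF receptor family. Receptors with an intracellular death domain can start apoptosis through FADD and caspases or switch on NF-kB through TRAF and RIPK adaptors, while decoy receptors bind the ligand without passing on a death signal. Senescent fibroblasts secrete many inflammatory factors, known as the senescence-associated secretory phenotype, and senescent cells are known for altered sensitivity to death ligands.

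The libraries held between 16293975 and 23570266 counts each. METTL3 RNA stood at 114100 and 147800 CPM (counts scaled to a common library total) in mutant knock-in cells, 58380 and 58120 CPM in wild type knock-in cells, 23.2 and 28.89 CPM in METTL3 knockout cells, 47.27 and 57.3 CPM in senescent control cells and 72.66 and 81.43 CPM in control cells. It was thus lower but present in the knockout (log2 change -1.01 against senescent control, SE 0.15, adjusted p = 0.000872), and the mutant exceeded the wild type knock-in (log2 1.17, adjusted p = 0.00127). Transcripts of HRAS, a RAS family gene, averaged 26.73 CPM ± 4.29 in mutant knock-in, 46.08 ± 3.77 in wild type knock-in, 40.17 ± 0.905 in METTL3 knockout, 61.17 ± 0.201 in senescent control and 14.68 ± 0.105 in control cells (SD, n = 2 each). HRAS was lower in the knockout than in senescent control (adjusted p = 0.0021) and lower in the mutant than in the wild type knock-in (adjusted p = 0.00229), and its part in the results below was not tested. All 10 fibroblast markers had counts in every sample. Their summed levels were 5391 to 6068 CPM in mutant knock-in, 8096 to 8566 in wild type knock-in and 10220 to 10820 in METTL3 knockout. In senescent control they were 9898 to 10660 CPM and in control cells 14920 to 18140 CPM. VIM, COL1A1 and COL1A2 made up most of these sums. Against control cells, mutant knock-in had 8 of the 10 lower and 2 higher, where 68.2% of all genes passed. Those higher were LUM (53.92 against 26.66 CPM) and FAP (125.5 against 57.26 CPM). Leukocyte markers summed to 170.1 and 177.3 CPM in mutant knock-in and 157.2 and 163.4 CPM in wild type knock-in, against 66.83 to 79.54 CPM in the 6 other samples, and most of that was CD68, a lysosomal protein of macrophages that other cells also make, at 165.9 CPM ± 3.1 in mutant and 156.1 ± 5.98 in wild type knock-in. PTPRC, the pan-leukocyte marker, held 4.407 CPM in mutant knock-in, 1.198 in wild type knock-in and 0 in control cells, and 3 or 4 of the 6 markers had a count in each sample, CD3E in none. Endothelial markers summed to 4.414 and 6.081 CPM in mutant knock-in, against 1.039 to 2.687 CPM in the other samples, with CLDN5 at 0, and epithelial markers to 2.441 to 4.99 CPM, with KRT5 at 0. The part of these markers in the results was not tested. Replicate samples differed by more than sampling noise in every group, most of all between the 2 control samples (chi-square of 37.7 a gene, against 5.47 to 7.93 in the other groups).

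TNFSF15 (ENSG00000181634), the ligand TL1A of the death domain receptor TNFRSF25, had the widest range of the members tested. It stood at 29.58 and 30.15 CPM in mutant knock-in cells, 28.8 and 29.94 in wild type knock-in, 4.041 and 3.233 in METTL3 knockout, 129.4 and 121 in senescent control, and 0.3939 and 0.224 CPM in control cells, the last from 9 and 5 reads. Only the 2 knock-in groups overlapped. In senescent control cells TNFSF15 was 396-fold higher than in control cells (log2 8.63, SE 0.177, adjusted p = 4.3e-11). In METTL3 knockout cells it fell to 2.9% of the senescent control level (log2 -5.11, SE 0.129, adjusted p = 5.55e-10), which was still 11.5-fold above control cells (adjusted p = 1.03e-06). In the mutant knock-in it rose 8.23-fold over the knockout (log2 3.04, SE 0.132, adjusted p = 1.83e-08), to 23.9% of senescent control. With wild type METTL3 it rose 8.1-fold over the knockout (log2 3.02, SE 0.132, adjusted p = 3.13e-08), to 23.5% of senescent control. Mutant and wild type knock-in did not differ by the test (log2 0.02, 95% interval -0.205 to 0.251, adjusted p = 0.911). The direction of that small value turned under 2 of 10 alternative settings.

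TNFSF10 (ENSG00000121858), the death ligand TRAIL, was close to the detection limit in every group. It had 5 and 4 reads in mutant knock-in, 8 and 4 in wild type knock-in, 1 and 1 in METTL3 knockout, 0 and 1 in senescent control, and 4 and 3 reads in control cells. A count of 0 in that senescent control sample allows a level of up to 0.165 CPM. TNFSF10 was removed by the filter and is in no count below. By reads pooled over each group, the ratio of wild type knock-in to knockout was 5.79 (12 against 2 reads, exact 95% interval 1.29 to 53.2) and that of mutant knock-in to knockout 5.05 (9 against 2 reads, interval 1.04 to 48). These intervals cover counting error only. Fitted without the filter, TNFSF10 passed the edgeR test for the wild type knock-in against senescent control (adjusted p = 0.0284) and for the mutant knock-in against senescent control (adjusted p = 0.0491), and not for the wild type knock-in against the knockout (adjusted p = 0.12). Reads were also few for TNF, FASLG (the ligand of FAS) and TNFSF11 (the ligand of RANK), at 2 reads of TNF, 7 of FASLG and 1 of TNFSF11 over all 10 samples.

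The promoters of both ligands are shown to set the sequence of TNFSF15, which had a wide range across groups, beside that of TNFSF10, which had few reads in any group. They run from 250 bases before to 50 bases after the transcription start, from RefSeq on GRCh38.p14, and the 6 of 10 members with an entry in that table were matched by symbol. TNFSF15 lies at chr9:114792481-114792780 and TNFSF10 at chr3:172523381-172523680, both on the minus strand. Capitals mark the match to the AP-1 motif TGANTCA in TNFSF15, and to the interferon response motif (GAAA, 2 free bases, GAAA), on the opposite strand, and to TATAAA in TNFSF10.
TNFSF15: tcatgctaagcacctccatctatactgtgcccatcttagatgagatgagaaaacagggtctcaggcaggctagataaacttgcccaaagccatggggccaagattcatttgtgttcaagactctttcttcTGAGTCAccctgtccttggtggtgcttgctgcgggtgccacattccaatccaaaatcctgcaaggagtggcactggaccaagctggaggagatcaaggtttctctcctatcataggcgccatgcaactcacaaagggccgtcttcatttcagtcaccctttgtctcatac
TNFSF10: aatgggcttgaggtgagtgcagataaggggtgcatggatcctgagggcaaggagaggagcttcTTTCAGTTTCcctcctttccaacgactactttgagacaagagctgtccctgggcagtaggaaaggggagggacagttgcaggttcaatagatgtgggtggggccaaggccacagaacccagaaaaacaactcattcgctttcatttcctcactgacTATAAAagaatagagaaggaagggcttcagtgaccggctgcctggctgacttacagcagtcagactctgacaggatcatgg
The TNFSF15 match begins at -120 relative to the transcription start and is 1 site that reads as the motif on both strands. In TNFSF10 the interferon response match begins at -187 and TATAAA at -31. Among 35116 promoters of this length, 7.71% held TGANTCA, 3.57% the interferon response motif, 11.3% a kB consensus and 7.33% TATAAA on the plus strand. A kB match was not found in the TNFSF15 window, which says only that these letters are absent there. The motifs were chosen after the values were known, and a match is a description of the letters.

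**Figure D1:**
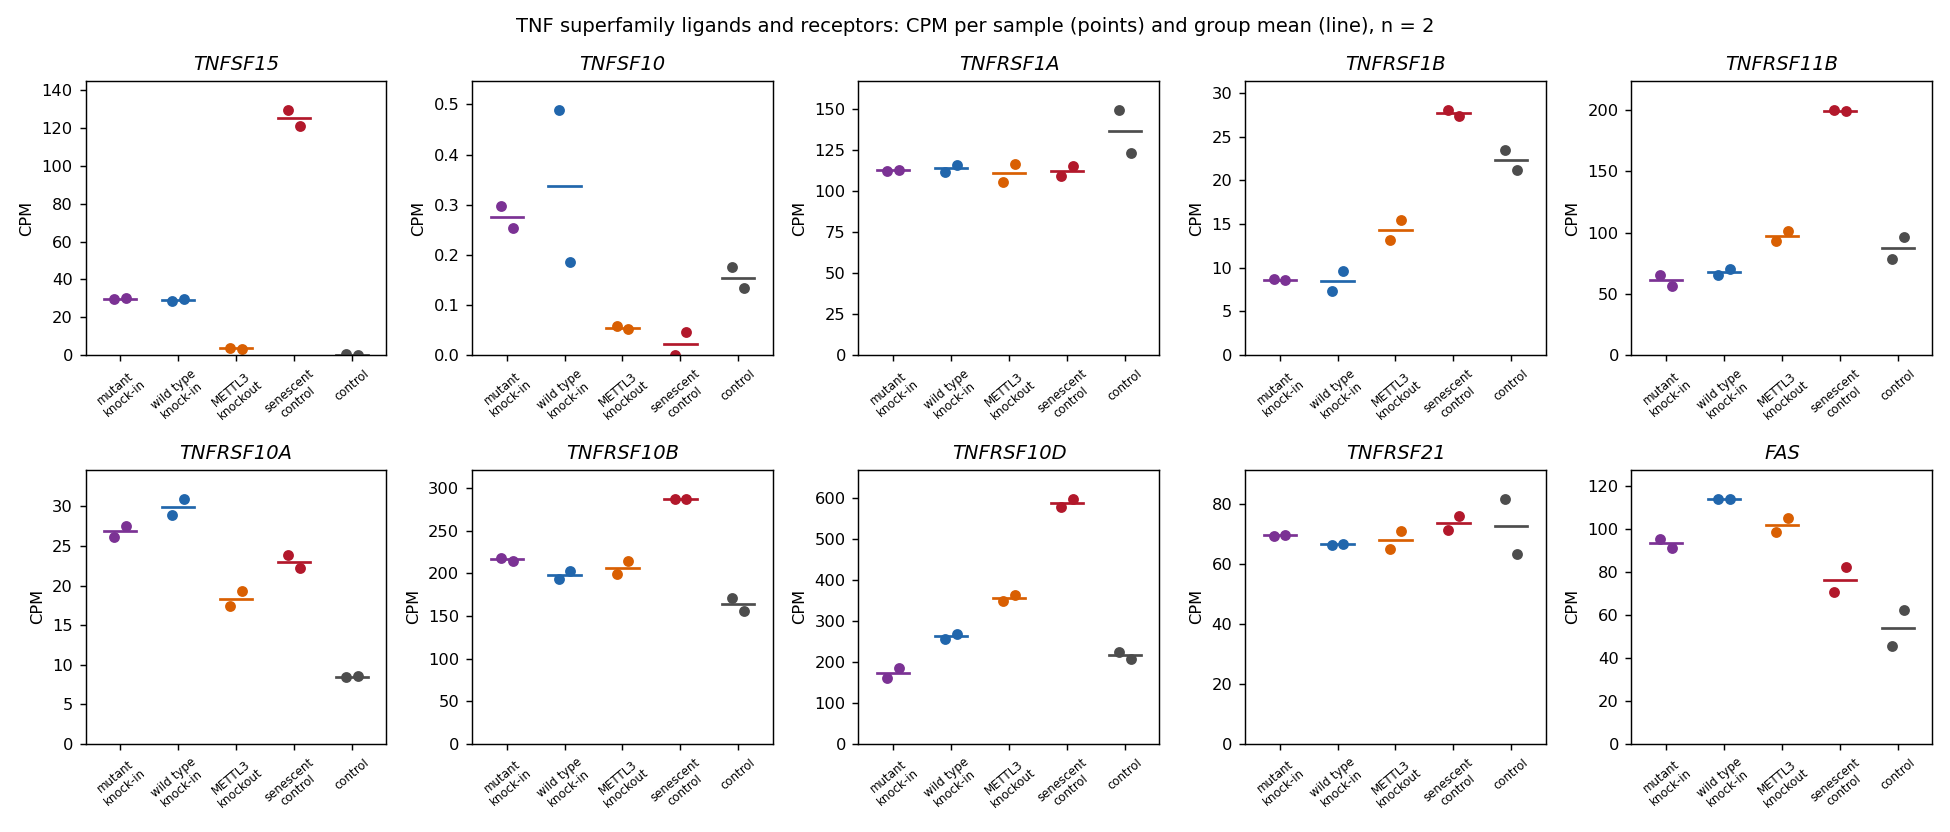
Level of each member in CPM (y axis, linear from 0, scaled per gene) in the 2 samples of each group (points) with the group mean (line). TNFSF15 stands near 125 CPM in senescent control and at 29 to 30 CPM in both knock-ins; the group means of TNFRSF21 lie between 66.66 and 73.81 CPM, and TNFRSF10D is highest in senescent control and lowest in mutant knock-in.

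Senescent control cells had 6 of the 9 tested members higher and 1 lower than control cells, where 45% of all tested genes passed the test, 19.7% higher and 25.3% lower. The median log2 change of the members was 0.81, against -0.03 for all genes. After METTL3 knockout 5 of 9 were lower and 0 higher than in senescent control, where 15.8% of all genes passed (7.17% higher and 8.62% lower); the median of the members was -0.47, against 0.01 for all genes. The wild type knock-in against the knockout had 2 of 9 members higher and 3 lower (of all genes 33.3% passed, 18.5% higher and 14.8% lower), and the mutant knock-in against the knockout also had 2 higher and 3 lower (48.4%, with 24.1% higher and 24.3% lower). Mutant against wild type knock-in had 1 member lower and 0 higher, with 12.5% of all genes called, 5.16% higher and 7.39% lower. Relative to senescent control, 2 members were higher and 5 lower in wild type knock-in (39.9% of genes, 20.8% higher and 19.1% lower) and 0 higher and 5 lower in mutant knock-in (53.3%, 27% higher and 26.3% lower). Relative to control cells, 4 members were higher and 4 lower in mutant knock-in (68.2% of genes, 33.7% higher and 34.4% lower), 5 higher and 3 lower in wild type knock-in (59.9%, 29.7% higher and 30.2% lower), and 5 higher and 2 lower in METTL3 knockout (46.4%, 19.7% higher and 26.7% lower). Comparisons with a common group share its 2 samples, so these counts are not independent. The members were also chosen with earlier results of these data known, so their counts and medians beside those of all genes are descriptions. In bulk RNA, a change in the share of cells that make a transcript and a change in its level per cell cannot be told apart.

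TNFRSF10A, TNFRSF10B and TNFRSF10D, receptors of TRAIL, were higher in senescent control than in control cells. TNFRSF10A (ENSG00000104689, death receptor 4) stood at 26.12 and 27.55 CPM in mutant knock-in, 28.86 and 30.92 in wild type knock-in, 17.37 and 19.35 in METTL3 knockout, 23.85 and 22.19 in senescent control, and 8.448 and 8.555 CPM in control cells. Control cells were lowest, with no overlap, and knockout cells were below both knock-ins. It rose 2.7-fold in senescent control over control (log2 1.44, SE 0.109, adjusted p = 6.63e-07) and, over the knockout, in the wild type knock-in (log2 0.70, SE 0.102, adjusted p = 0.000271) and the mutant knock-in (log2 0.55, SE 0.104, adjusted p = 0.000967). Its change in the knockout against senescent control was log2 -0.32 (adjusted p = 0.0526), which passed in a fit of these 2 groups alone (adjusted p = 0.00814). The wild type knock-in exceeded senescent control (log2 0.38, adjusted p = 0.00978), and this call was lost without senescent control sample 2 (adjusted p = 0.0968) or wild type sample 2 (adjusted p = 0.0923).

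TNFRSF10B (ENSG00000120889, death receptor 5) stood at 217.5 and 214.8 CPM in mutant knock-in, 193.6 and 202.2 in wild type knock-in, 198.9 and 214.2 in METTL3 knockout, 286.6 and 286.9 in senescent control, and 171.1 and 155.8 CPM in control cells. Senescent control stood clear above every other group. TNFRSF10B was 1.75-fold higher there than in control cells (log2 0.81, SE 0.0871, adjusted p = 1.38e-05) and fell by 0.47 on the log2 scale in the knockout (SE 0.0867, adjusted p = 0.00262). That fall lost its call without knockout sample 1 (adjusted p = 0.0539). Neither knock-in passed the test against the knockout (log2 0.07 for mutant, 95% interval -0.123 to 0.255, adjusted p = 0.563; log2 -0.06 for wild type, -0.25 to 0.127, adjusted p = 0.632).

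TNFRSF10D (ENSG00000173530, decoy receptor 2, with a truncated death domain) stood at 161 and 184.3 CPM in mutant knock-in, 256.1 and 269 in wild type knock-in, 347.8 and 364 in METTL3 knockout, 578 and 597.9 in senescent control, and 225.1 and 206.6 CPM in control cells. No 2 groups overlapped, and each neighbour in the order of levels differed by the test. It rose 2.72-fold in senescent control over control (log2 1.45, SE 0.0948, adjusted p = 1.77e-07) and fell in the knockout against senescent control (log2 -0.72, SE 0.0934, adjusted p = 0.000241). It was lower still in the wild type knock-in than in the knockout (log2 -0.44, SE 0.0934, adjusted p = 0.0034). In the mutant knock-in it was lower than in the wild type knock-in (log2 -0.60, SE 0.0941, 95% interval -0.809 to -0.40, adjusted p = 0.00354) and below control cells (log2 -0.32, adjusted p = 0.00889). It was the one member called between the 2 knock-ins, and without wild type sample 2 it had log2 -0.54 and adjusted p = 0.0628. HRAS and METTL3 RNA also differed between these groups, as given above, and their part in the difference was not tested.

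The remaining TRAIL receptor gene, TNFRSF10C, encodes decoy receptor 1, which lacks an intracellular domain. It stood at 18.18 CPM ± 1.53 in mutant knock-in, 19.01 ± 1.42 in wild type knock-in, 13.13 ± 1.6 in METTL3 knockout, 7.207 ± 0.267 in senescent control and 3.918 ± 0.0301 CPM in control cells (SD, n = 2 each). Like the other TRAIL receptors, it was higher in senescent control than in control cells (log2 0.88, SE 0.151, adjusted p = 0.000544). Unlike TNFRSF10D, it rose in the knockout against senescent control (log2 0.86, SE 0.135, adjusted p = 0.000935). It rose again in the wild type knock-in over the knockout (log2 0.53, SE 0.125, adjusted p = 0.00601). By length-scaled level, TNFRSF10D and TNFRSF10C made up 53.4% ± 1.64 of the summed TRAIL receptor RNA in mutant knock-in, 63.5% ± 0.3 in wild type knock-in, 69.9% ± 0.704 in METTL3 knockout, 72.8% ± 0.591 in senescent control and 64.6% ± 0.025 in control cells. TNFRSF10A took 8.3% in mutant knock-in, 7.62% in wild type knock-in, 4.04% in METTL3 knockout, 3.34% in senescent control and 2.96% in control cells. These shares were not tested. The TRAIL receptors resemble each other in sequence, and how shared reads were counted was not given in the sources used here, so their split is uncertain. Exons of TNFRSF10C overlap AC107959.4 over 26% and AC107959.5 over 13.3% of their bases, and exons of TNFRSF10A overlap genes on the opposite strand, AC100861.1 over 9.01% and TNFRSF10A-AS1 over 7.59% of theirs.

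**Figure D2:**
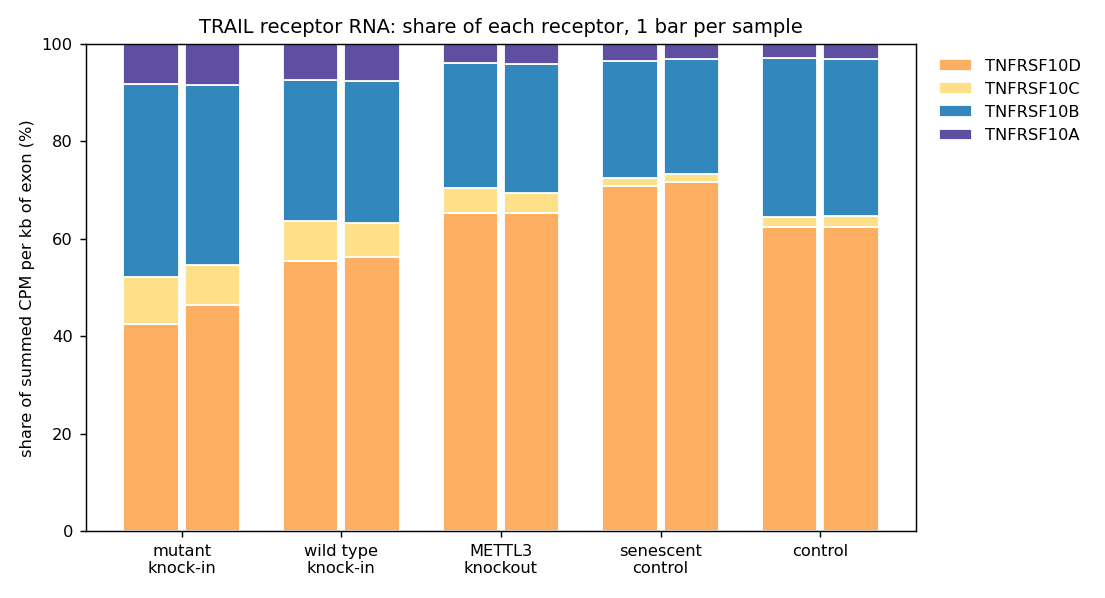
Share of each TRAIL receptor in the summed CPM per kilobase of exon (y axis, percent), 1 bar per sample, 2 bars per group. TNFRSF10D takes the largest share in every sample, 71.2% on average in senescent control and 44.5% in mutant knock-in.

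TNFRSF11B (ENSG00000164761, osteoprotegerin), a secreted decoy receptor for TNFSF11 and TRAIL, stood at 65.07 and 56.81 CPM in mutant knock-in, 65.53 and 69.94 in wild type knock-in, 93.34 and 101.3 in METTL3 knockout, 199.8 and 199.3 in senescent control, and 78.61 and 96.12 CPM in control cells. Senescent control was far above all other samples. It was 2.28-fold higher there than in control cells (log2 1.19, SE 0.11, adjusted p = 3.7e-06). It fell by 1.04 on the log2 scale in the knockout against senescent control (SE 0.11, adjusted p = 5.79e-05). The knock-ins were lower again than the knockout, by log2 -0.67 for mutant (SE 0.112, adjusted p = 0.000367) and -0.52 for wild type (SE 0.111, adjusted p = 0.00332). The knockout did not differ from control cells by the test (log2 0.16, 95% interval -0.0827 to 0.394, adjusted p = 0.261).

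TNFRSF1A (ENSG00000067182), the widely expressed death domain receptor of TNF, stood at 112.3 and 113.2 CPM in mutant knock-in, 111.7 and 116.1 in wild type knock-in, 105.6 and 116.6 in METTL3 knockout, 109.3 and 115.1 in senescent control, and 149.3 and 123.6 CPM in control cells. The 4 senescent groups overlapped and the control samples were both higher. Its fall of 0.28 on the log2 scale in senescent control against control (SE 0.102, adjusted p = 0.039) lost its call in 8 of 10 alternative settings (adjusted p between 7.96e-05 and 0.208 over all 10), among them leaving out control sample 1 (0.138), senescent control sample 1 (0.198) or sample 2 (0.0998), and under the replicate block it was 0.0501.

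TNFRSF1B (ENSG00000028137), the second TNF receptor, has no death domain and signals through TRAF proteins. It stood at 8.768 and 8.551 CPM in mutant knock-in, 7.322 and 9.652 in wild type knock-in, 13.16 and 15.49 in METTL3 knockout, 28.02 and 27.39 in senescent control, and 23.51 and 21.19 CPM in control cells. The knock-ins overlapped each other and were the lowest groups. It fell in the knockout against senescent control (log2 -0.95, SE 0.131, adjusted p = 0.000406), and the knock-ins were lower than the knockout, by log2 -0.73 for mutant (SE 0.147, adjusted p = 0.00145) and -0.74 for wild type (SE 0.144, adjusted p = 0.00184). Senescent control against control gave log2 0.31 (adjusted p = 0.0619). This change passed in 3 of 10 alternative settings, among them upper-quartile scaling (adjusted p = 0.0352) and METTL3 left out (adjusted p = 0.0389). Without control sample 1 the log2 change was 0.387.

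FAS (ENSG00000026103), the death receptor of FASLG, stood at 95.67 and 91.27 CPM in mutant knock-in, 114 and 114.1 in wild type knock-in, 98.88 and 105.3 in METTL3 knockout, 70.79 and 82.41 in senescent control, and 45.65 and 62.53 CPM in control cells. Both control samples were lowest and both wild type knock-in samples highest. It rose in senescent control over control (log2 0.50, SE 0.132, adjusted p = 0.00848), a call lost without senescent control sample 2 (adjusted p = 0.0914) and in a fit of these 2 groups alone (adjusted p = 0.0641). Without control sample 1 the log2 change was 0.295. Knockout against senescent control gave log2 0.41 (adjusted p = 0.0511), which passed in 5 of 10 alternative settings (adjusted p between 0.00011 and 0.331 over all 10), the replicate block among them (0.0361). The wild type knock-in was higher than senescent control (log2 0.57, adjusted p = 0.00425), a call lost without senescent control sample 1 (adjusted p = 0.056). Mutant against wild type knock-in gave log2 -0.29 (95% interval -0.571 to -0.00308, adjusted p = 0.166), which passed with no filter (adjusted p = 0.0335) and in a fit of these 2 groups alone (adjusted p = 0.00813), out of 10 alternative settings with adjusted p between 0.00813 and 0.537. Exons of FAS overlap ACTA2 on the opposite strand over 8.93% of their bases, and the strand setting of the counting was not given in the sources used here.

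TNFRSF21 (ENSG00000146072, death receptor 6) stood at 69.6 and 69.74 CPM in mutant knock-in, 66.5 and 66.82 in wild type knock-in, 65.11 and 71.24 in METTL3 knockout, 71.34 and 76.29 in senescent control, and 81.77 and 63.47 CPM in control cells. The control samples were the highest and the lowest of all 10, and it passed the test in none of the 10 comparisons above. Without control sample 1, senescent control exceeded control by log2 0.22 (adjusted p = 0.0268).

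**Figure D3:**
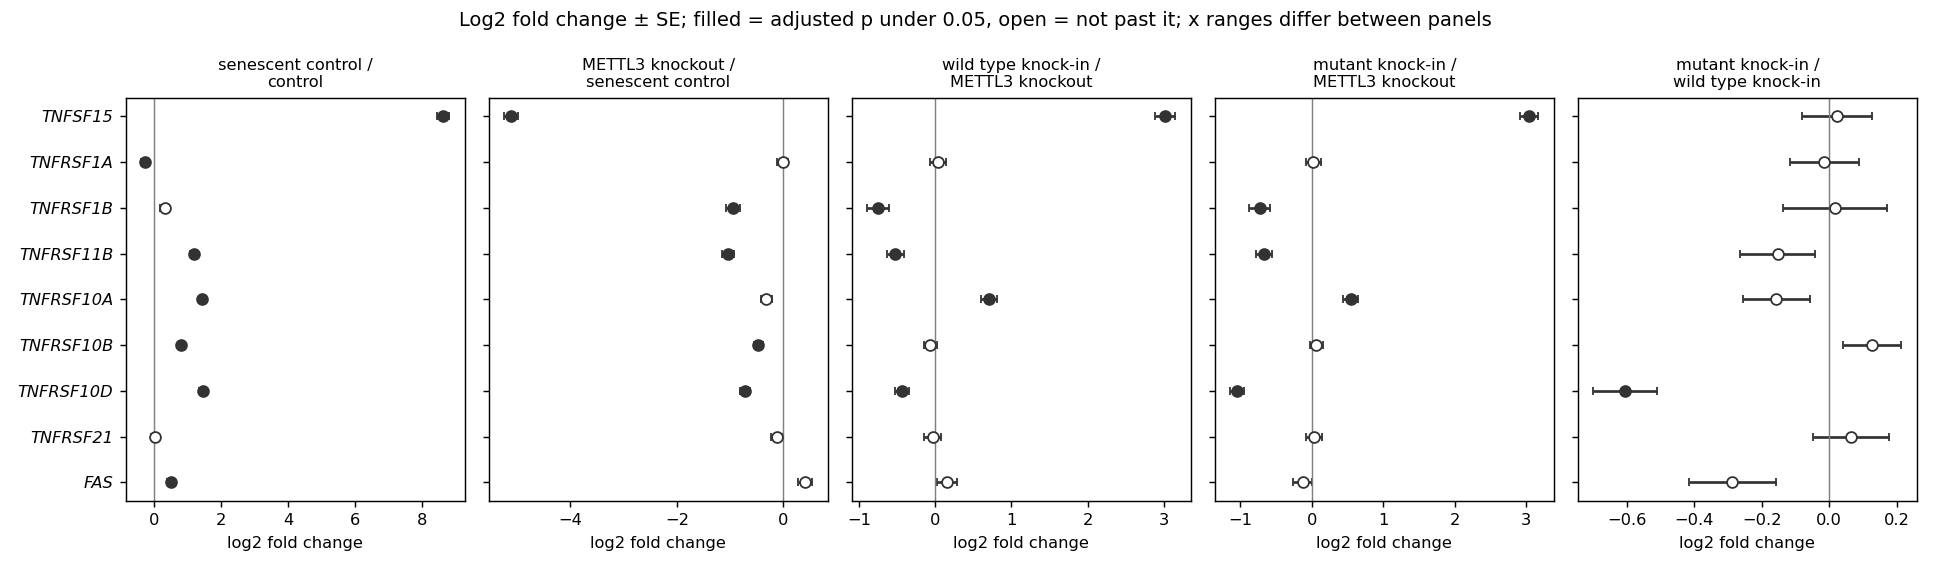
Log2 fold change (x axis, ranges differ between panels) of the 9 tested members in 5 comparisons, with bars of 1 SE from the edgeR fit; filled points have adjusted p under 0.05. TNFSF15 has the largest change in every panel but the last, where TNFRSF10D is the filled point.

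Per kilobase of exon, the members differed widely in senescent control cells, where TNFRSF10D led with 166 CPM per kilobase, followed by TNFRSF11B with 70.6 and TNFRSF10B with 55.6. TNFRSF1A had 28, TNFRSF21 20.5, FAS 18 and TNFSF15 15.9 CPM per kilobase. TNFRSF10A had 7.8, TNFRSF1B 7.36 and TNFSF10 0.00657 CPM per kilobase. Exon lengths came from GENCODE 29 and may differ from the annotation behind the counts.

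Over the 5 group means, the genes whose centred log2 pattern lay nearest to that of TNFSF15 were CXCL8, at a root mean square distance of 0.44, CXCL1 at 0.70 and IL1B at 0.95, against a median distance of 2.9 over 16066 genes. CXCL8, a neutrophil chemokine, averaged 130 CPM in mutant knock-in, 120 in wild type knock-in, 10.6 in METTL3 knockout, 248 in senescent control and 0.928 CPM in control cells. Among the same promoters CXCL8 holds TGANTCA at -137, and CXCL1 holds a kB match at -79 and no TGANTCA. FAS holds TGANTCA at -242 in 1 of its promoters and a kB match at -157 in another. TNFRSF1B holds the interferon response motif at -10, on the opposite strand. No match was found for IL1B, and whether it had an entry was not recorded. For FAS the nearest were H2BC20P (0.0336), ZNF404 (0.0421) and SPATA13 (0.0475), with a median of 0.514. The 5 groups are the only points, so these distances are descriptions.

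Among the other genes of the family, 6 of 16 ligands and 10 of 21 receptors passed the filter. In senescent control against control, where 45% of all tested genes passed, 3 ligands were higher and 2 lower, led by TNFSF14 (19 against 3 reads, a ratio of 7.13, interval for counting error only 2.1 to 37.6), TNFSF18 (log2 1.61, adjusted p = 0.00413) and TNFSF13B (log2 1.05, adjusted p = 0.00568). The count of 5 was 3 without senescent control sample 1. Among the receptors 4 were higher and 2 lower against the same 45%, with TNFRSF25, the receptor of TNFSF15, at log2 1.33 (adjusted p = 5.17e-05), and TNFRSF14 at -2.11 (adjusted p = 0.0309). TNFRSF14 had few reads, 7 in senescent control against 35 in control, and the control samples stood at 0.4479 and 1.094 CPM. TNFRSF25 averaged 3.317 CPM in mutant knock-in, 3.136 in wild type knock-in, 5.639 in METTL3 knockout, 6.152 in senescent control and 2.434 CPM in control cells. It fell in the wild type knock-in against the knockout (log2 -0.84, adjusted p = 0.00241), where 3 receptors were higher and 1 lower and 33.3% of all genes passed. Of the ligands 2 were higher there and 1 lower, TNFSF18 (log2 2.75, adjusted p = 3.26e-05), TNFSF13B (1.38, adjusted p = 0.000761) and TNFSF12 (-0.70, adjusted p = 0.0211). TNFRSF9, a costimulatory receptor, had 151 reads in wild type knock-in against 2 in the knockout, a ratio of 72.8 (interval for counting error only, 19.8 to 607). The count of 4 receptors called there was 2 without knockout sample 2. In METTL3 knockout against senescent control, where 15.8% of all genes passed, 0 ligands passed the edgeR test in either direction (0 at an unadjusted p under 0.05 and 0 by DESeq2), and 1 receptor rose (TNFRSF10C) and 1 fell (TNFRSF19, log2 -0.58, adjusted p = 0.000385). With only the compared groups fitted, 2 receptors were higher and 2 lower, and calls over all genes rose to 5621 from 2646.

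Of 13 death signalling genes tested, 3 were higher and 1 lower in senescent control than in control cells, where 45% of all genes passed. MLKL, the effector of necroptosis, rose (log2 1.47, adjusted p = 1.79e-06), as did CFLAR, an inhibitor of caspase 8 activation (log2 0.91, adjusted p = 7.47e-06), and CASP6 fell (log2 -1.06, adjusted p = 1.03e-05). In the knockout against senescent control, where 15.8% of all genes passed, 0 were higher and 3 lower: XIAP, a caspase inhibitor (log2 -0.90, adjusted p = 0.000369), MLKL (-0.71, adjusted p = 0.0015) and BID, which links death receptors to mitochondria (-0.39, adjusted p = 0.0146). With only the compared groups fitted, 3 were higher and 4 lower, and calls over all genes rose to 5621 from 2646. In the wild type knock-in against the knockout, where 33.3% of all genes passed, 1 was higher (CASP10, log2 1.16, adjusted p = 0.0413) and 2 lower, among them BID (log2 -0.54, adjusted p = 0.00127). CASP10 had 64 reads in wild type knock-in against 28 in the knockout. The number called higher was 0 by DESeq2 and 0 under the replicate block. Between the mutant and the wild type knock-in, 12.5% of all genes passed the edgeR test. Of the death signalling genes 0 passed (3 at an unadjusted p under 0.05, 1 by DESeq2). Likewise 0 other ligands (2 unadjusted, 0 by DESeq2) and 0 other receptors (2 unadjusted, 0 by DESeq2) passed. With only the compared groups fitted, 3 death signalling genes, 2 ligands and 2 receptors passed, and calls over all genes rose to 4078 from 2103. Upper-quartile scaling gave 1 death signalling gene and 1 ligand. CASP8, the initiator caspase, passed in none of the 10 group pairs.

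The list of adaptors and ubiquitin enzymes of the NF-kB arm also held kinases and genes that restrain the arm, such as TNFAIP3. Of this list, 6 of 19 tested were higher and 3 lower in senescent control than in control cells (45% of all genes passed). In the knockout 0 were higher and 2 lower than in senescent control (15.8% of all genes). The wild type knock-in had 7 higher and 2 lower than the knockout (33.3% of all genes). For the knockout against senescent control, 0 were higher and 5 lower with no filter. With only the compared groups fitted, 3 were higher and 7 lower there, and calls over all genes also rose, to 5621. TNFAIP3, the enzyme A20 that restrains NF-kB, averaged 288 CPM ± 40.2 in mutant knock-in, 165.9 ± 5.25 in wild type knock-in, 15.41 ± 0.483 in METTL3 knockout, 47.09 ± 3.58 in senescent control and 9.45 ± 0.378 CPM in control cells. It rose in senescent control over control (log2 2.31, adjusted p = 2.35e-08), fell in the knockout against senescent control (log2 -1.61, adjusted p = 3.1e-06) and rose in the wild type knock-in over the knockout (log2 3.43, adjusted p = 6e-09). In senescent control over control, BIRC3 also rose (log2 1.66, adjusted p = 2.11e-05) and TRAF2 fell (log2 -1.05, adjusted p = 0.000868). TRAF1, an adaptor of TNFRSF1B, and BIRC3, a ubiquitin ligase that binds TRAF proteins, rose in the wild type knock-in over the knockout by log2 3.42 (adjusted p = 3.13e-08) and 2.59 (adjusted p = 7.83e-07). Mutant against wild type knock-in had 3 higher, TNFAIP3 (log2 0.80, adjusted p = 0.00149), TRAF1 (0.64, adjusted p = 0.00584) and CYLD (0.41, adjusted p = 0.0238), and 0 lower, where 12.5% of all genes passed. That count was 1 without wild type sample 2 or mutant sample 2, and the count of 2 lower in the knockout against senescent control was 1 with any 1 of those 4 samples left out.

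**Figure D4:**
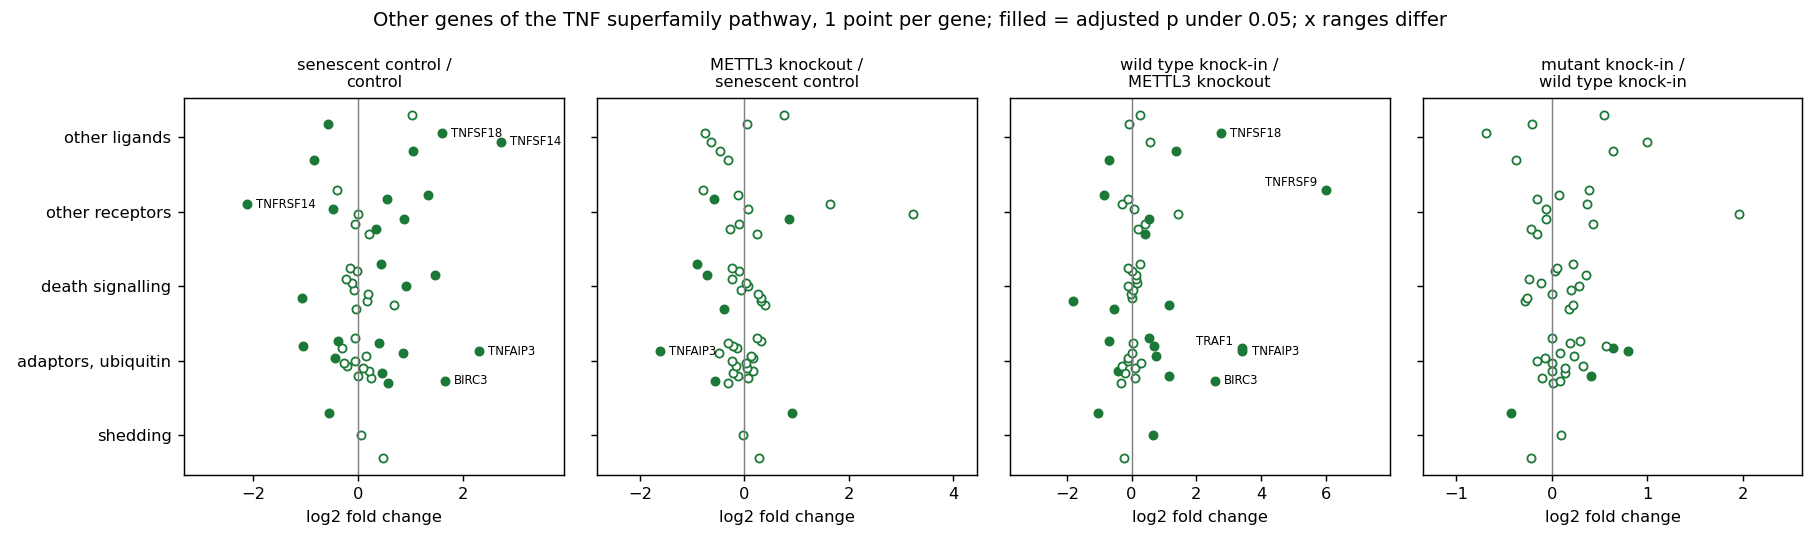
Log2 fold change (x axis, ranges differ between panels) of the other tested genes of the TNF superfamily pathway in 4 comparisons, 1 point per gene, grouped by role (y axis); filled points have adjusted p under 0.05. TNFAIP3 lies right of 0 in senescent control against control, left of 0 in knockout against senescent control and far right in wild type knock-in against knockout.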

How the data were processed

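RNA was sequenced from 10 IMR90 samples in 5 groups, taken from the sample titles. Per the labels' protocols, RNA was extracted with RNeasy and libraries were made with KAPA RNA HyperPrep. RSEM 1.2.12 and Bowtie2, of a version not named, were used on hg19, per the submitters' processing notes. The deposited table, made by the authors, holds whole-number counts per Ensembl gene, not normalized; annotation, strand setting and any rounding were not given in the sources used here. IDs were matched to symbols for 51959 of 57736.

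Deposited counts were tested in R 4.3.3 with edgeR 4.0.16: filterByExpr with a minimum count of 10, TMM scaling, 1 model with a coefficient per group over 10 samples (5 residual degrees of freedom) and the two-sided robust quasi-likelihood F test, Benjamini-Hochberg adjusted over all 16760 genes. Every adjusted p is from this test unless another tool is named, and rose, fell, higher and lower mean an adjusted p under 0.05 where a test is given. SE is the log2 change over the root of its F; all samples share the dispersion. CPM used TMM-scaled totals. The script was tested on simulated data. Members and gene lists were chosen with earlier results of these data known. Named were all 10 members, the 3 list genes with the largest called change in each of 4 comparisons, and the 3 genes nearest in pattern; other names were chosen after their values were seen. A gene of this rule is not reported here. The labels do not say whether replicate numbers pair samples. Deviations of sample 1 from its group mean had correlations of -0.12 to 0.0608 over 10 group pairs, which cannot exclude a pairing. Alternatives were upper-quartile scaling, DESeq2 1.42.0, no filter, only the compared groups, a replicate block, METTL3 left out, and each sample left out.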

Additional observations from a re-analysis of the deposited data

Results flagged for a closer look

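TNFRSF10D, decoy receptor 2 of TRAIL, was singled out because its effect over the METTL3 knockout differed between the mutant and the wild type knock-in. The log2 difference was -0.60 (SE 0.0941, edgeR quasi-likelihood adjusted p = 0.00354), from 161 and 184.3 CPM in mutant knock-in against 256.1 and 269 CPM in wild type knock-in cells. Over the 10 alternatives its adjusted p ran from 1.93e-07 to 0.0628, the highest without wild type sample 2.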

How the results depend on the processing

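With 2 samples a group, small changes are poorly resolved, and leaving out 1 sample leaves a lone sample assumed to vary like the other groups. The number of members called stayed within 1.5 times in 6 of 7 comparisons over 10 alternatives each. For mutant against wild type knock-in it was 1, against 2 (TNFRSF10D and FAS) with no filter, 2 (the same pair) with only the compared groups, and 0 to 1 with a sample left out. Under the replicate block it was 6 in senescent control against control and 6 in knockout against senescent control. It was 5 and 5 in the wild type and mutant knock-ins against the knockout, and 1 between the knock-ins. Against senescent control it was 7 in the wild type and 5 in the mutant knock-in. In the labels, samples of 1 block are linked by a number alone. The calls of TNFRSF1A in senescent control against control and of FAS in knockout against senescent control changed under the block, as given above. Over all genes, calls in knockout against senescent control numbered 2646, against 5621 with only the compared groups and 1229 to 1425 with a sample left out; in mutant against wild type knock-in, 2103 against 4078 and 120 to 1051. Upper-quartile scaling moved the share of higher calls there to 57.7%, against 41.1%.

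Log2 changes that turned sign were small and not called. Without the filter these were TNFRSF1A in mutant knock-in against knockout (-0.0256), TNFRSF21 there (-0.0157), TNFSF15 (-0.0154) and TNFRSF1B (-0.0219) in mutant against wild type knock-in, and TNFRSF1A in wild type (-0.000407) and mutant knock-in (-0.0538) against senescent control. Under upper-quartile scaling these were TNFRSF1A in knockout against senescent control (0.0292) and in mutant against wild type knock-in (0.0346), and TNFRSF21 in mutant knock-in against senescent control (0.0123). TNFRSF1A was 0.0109 in mutant against wild type knock-in with METTL3 left out. With a sample left out, TNFRSF1A ran from -0.0878 to 0.0555 in knockout against senescent control, -0.0339 to 0.11 in wild type knock-in and -0.0486 to 0.0948 in mutant knock-in against knockout, -0.0418 to 0.0386 in mutant against wild type knock-in, and -0.0353 to 0.0597 in wild type and -0.048 to 0.045 in mutant knock-in against senescent control. TNFRSF21 ran from -0.147 to 0.219 in senescent control against control, and -0.0957 to 0.034 in wild type and -0.0321 to 0.0976 in mutant knock-in against knockout. In mutant against wild type knock-in, TNFSF15 ran from -0.00346 to 0.0778 and TNFRSF1B from -0.156 to 0.267. The causes were not tested.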

Other observations

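Of the 3 genes that govern release of these ligands and receptors from the cell surface, TIMP3, an inhibitor of ADAM17, averaged 295.7 CPM ± 4.14 in mutant knock-in, 396 ± 2.81 in wild type knock-in, 813.1 ± 53.2 in METTL3 knockout, 432.3 ± 62 in senescent control and 633.9 ± 72.8 CPM in control cells (SD, n = 2 each). It fell in senescent control against control (log2 -0.55, adjusted p = 0.00174). In the knockout it rose against senescent control (log2 0.91, adjusted p = 0.000178). It fell in the wild type knock-in against the knockout (log2 -1.04, adjusted p = 3.35e-05). Mutant against wild type knock-in gave log2 -0.42 (adjusted p = 0.0312). This call was lost under upper-quartile scaling and with any 1 of the 4 samples left out. ADAM17, the protease that sheds TNF and its receptors, rose in the wild type knock-in over the knockout (log2 0.67, adjusted p = 0.000249).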
